A study of Mus musculus with 18 samples.

Results

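The genes described here encode the proteins of the mitochondrial ribosome. They are the 76 gene symbols, of 36655 in the expression table, that begin with Mrpl or Mrps followed by a number, with pseudogene symbols left out, and they were followed across all 18 RNA sequencing libraries of the series. The series examined early reprogramming of blood cells and fibroblasts of C57BL/6 mice grown wholly from induced pluripotent stem cells, in which doxycycline switches on oct4, sox2, klf4 and c-myc. The blood cells were stem cells with long-term (LT-HSC) or short-term (ST-HSC) repopulating ability, and myeloid progenitors (MP), each sampled uncultured (0), after 2 or 4 days of culture with doxycycline (2D, 4D) and after 2 or 4 days of culture without it (2N, 4N). Fibroblasts were sampled uncultured and after 2 or 4 days with doxycycline. Every group, the controls included, carried the inducible factors. The N libraries were taken as cultures without doxycycline from their titles and the series design, although their treatment field reads yes in all 6. Each blood library came from 25 hand-picked cells amplified by PCR, and the fibroblast libraries from bulk RNA by another method. Each condition was 1 library, so the spread behind every test is that between cell types and days, and cultures or animals were not replicated.

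Mitochondria keep their own ribosomes, which translate the few proteins encoded by mitochondrial DNA, all of them subunits of the respiratory chain and ATP synthase. The ribosomal proteins themselves are encoded in the nucleus, made in the cytosol and imported. Some descend from the proteins of bacterial ribosomes, and others were added in mitochondria. By these classes the 76 genes held 30 bacterial-type and 19 mitochondria-specific proteins of the large subunit, which forms peptide bonds, and 16 bacterial-type and 10 mitochondria-specific proteins of the small subunit, which reads the messenger RNA. The large-subunit class includes Mrps30 and Mrps18a in spite of their names, and Mrps36, now known as a part of the 2-oxoglutarate dehydrogenase complex, belonged to neither. Blood stem cells are known for low mitochondrial activity.

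Promoters of nuclear genes for mitochondrial proteins often hold sites for NRF1, YY1 and ETS-family factors, so the windows of the genes were searched. RefSeq promoter windows of 300 bases on GRCm38.p6, 250 before and 50 after the start, were found for 67 of the 76 symbols. On either strand, an NRF1 consensus stood in 12 of the 67 (17.9%, against 5.2% of 27025 genes with a window), GCCATNTTG (YY1) in 11 (16.4%, against 2.9%) and CCGGAAG (ETS) in 24 (35.8%, against 9.9%). The E-box CACGTG, which c-Myc binds, stood in 5 (7.5%, against 8.1%). At least 1 of the first 3 motifs stood in 59.7% of the members, in 16.1% of all genes and in 32.4% of the 8584 genes with a mean of 1 or more FPKM (fragments per kilobase of transcript, scaled to library size). Of those 8584 genes, 11.6% held the NRF1 motif, 5.1% the YY1 motif, 20.1% the ETS motif and 12.1% the E-box. A match is a description of letters and not of binding. The 250 bases upstream of the start are printed for 4 genes: Mrps6 and Mrpl52, which rose in the D libraries against N, Mrps18a, which rose from uncultured to D, and Mrpl12, whose product binds the mitochondrial RNA polymerase. Motif letters are in capitals, and all 4 genes lie on the plus strand: Mrps6 at chr16:92058086-92058335, Mrpl52 at chr14:54426659-54426908, Mrpl12 at chr11:120484387-120484636 and Mrps18a at chr17:46110754-46111003.
Mrps6: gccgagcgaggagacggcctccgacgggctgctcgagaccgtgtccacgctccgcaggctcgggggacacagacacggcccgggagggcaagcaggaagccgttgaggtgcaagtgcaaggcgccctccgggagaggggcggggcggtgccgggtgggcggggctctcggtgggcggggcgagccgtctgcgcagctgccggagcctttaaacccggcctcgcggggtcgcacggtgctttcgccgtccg
Mrpl52: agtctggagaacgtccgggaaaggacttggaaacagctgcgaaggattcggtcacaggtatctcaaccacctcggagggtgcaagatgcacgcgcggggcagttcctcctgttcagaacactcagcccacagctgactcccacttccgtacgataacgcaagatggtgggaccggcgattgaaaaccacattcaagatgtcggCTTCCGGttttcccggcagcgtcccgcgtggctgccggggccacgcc
Mrpl12: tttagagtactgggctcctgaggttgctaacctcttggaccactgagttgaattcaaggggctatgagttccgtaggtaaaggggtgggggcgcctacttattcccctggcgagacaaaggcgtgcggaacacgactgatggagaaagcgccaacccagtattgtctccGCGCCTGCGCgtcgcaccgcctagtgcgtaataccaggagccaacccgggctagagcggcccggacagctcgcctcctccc
Mrps18a: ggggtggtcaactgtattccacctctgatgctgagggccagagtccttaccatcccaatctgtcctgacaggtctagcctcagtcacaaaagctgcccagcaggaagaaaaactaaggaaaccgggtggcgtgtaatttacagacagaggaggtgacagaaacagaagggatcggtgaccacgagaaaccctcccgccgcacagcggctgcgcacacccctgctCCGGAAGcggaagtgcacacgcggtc
The capitals mark the ETS letters in Mrpl52 (beginning 47 bases before the start) and Mrps18a (26 bases before), read on opposite strands, and the NRF1 letters in Mrpl12 (81 bases before). In the bases after the start, which are not printed, Mrpl52 held another ETS match and Mrps18a a YY1 match. The Mrps6 window held none of the 4 motifs.

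Summed FPKM per library lay between 677649 and 767866 in blood and between 524225 and 572069 in fibroblasts, and depth in reads is unknown. Sox2, 1 of the induced factors, lay between 0 and 1.5 FPKM in the N libraries and between 15.6 and 61.3 in the D libraries of blood. The 6 myeloid progenitor markers (Mpo, Elane and others) summed to 59193 FPKM in uncultured MP, to 1630 in uncultured ST-HSC and to 42338 in uncultured LT-HSC, where the 9 stem cell markers were also above 0, so that the uncultured LT-HSC library goes partly against its label. In D libraries the 3 blood markers in the table (of 4 listed) summed to between 6.07 and 273 FPKM in LT-HSC and MP but to 2565 and 2078 in ST-HSC, and 3 neural markers summed to between 148 and 1378 FPKM, against 0 to 7.13 in N. In fibroblasts the 7 fibroblast markers summed to 11135 FPKM uncultured, 595 at 2D and 1726 at 4D. In such pooled samples fewer cells of a type and less RNA per cell cannot be told apart.

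The mitochondrial ribosomal protein genes were expressed in every library, and 73 of the 76 were above 0 in all 18. Their median was 48.2 FPKM in uncultured LT-HSC, 47.6 in uncultured ST-HSC and 102 in uncultured MP. In the N libraries the median lay between 92.2 and 139 FPKM, and in the D libraries between 96.2 and 148. The 2 uncultured stem cell libraries were thus the lowest of the 15 blood libraries, and uncultured MP lay within the range of the cultured ones. As a share of all FPKM, the 76 genes took 0.579% in uncultured LT-HSC, 0.718% in ST-HSC and 1.12% in MP, 1.26% to 1.66% in N and 1.34% to 2.12% in D. Fibroblasts were lower at 28.6 FPKM uncultured, 53.5 at 2D and 47.8 at 4D, in libraries of another method.

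**Figure D1:**
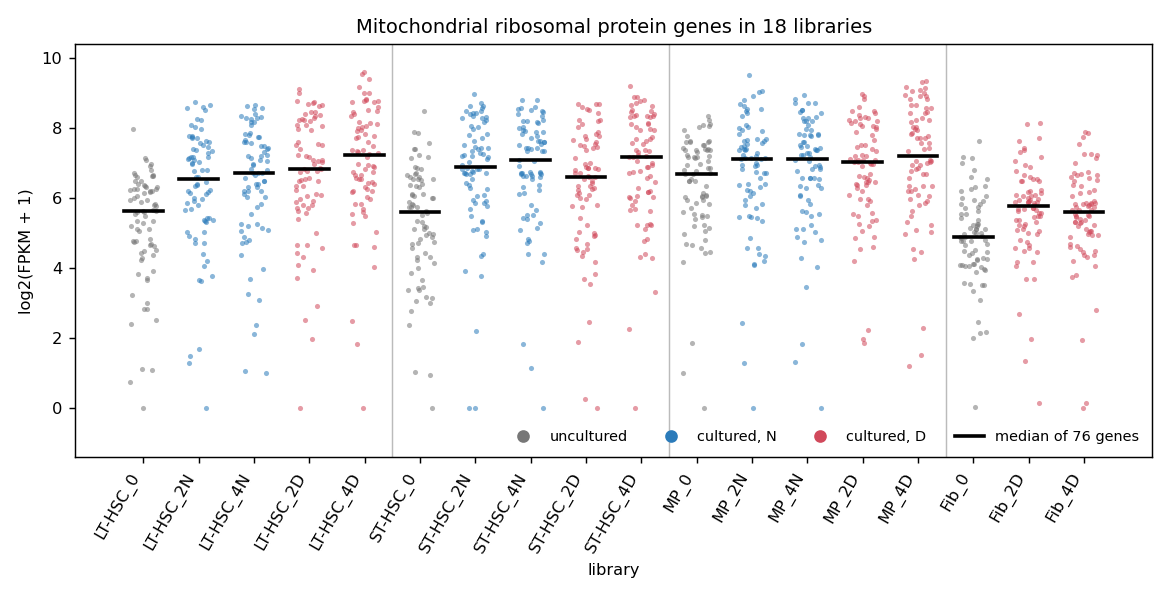
Level of each of the 76 genes, as log2(FPKM + 1), in the 18 libraries (horizontal axis), with 1 point per gene and a bar at the median. The uncultured LT-HSC and ST-HSC libraries have the lowest medians in blood, 48.2 and 47.6 FPKM.

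By mean FPKM over the 18 libraries, which is per length, the highest genes were Mrpl20 (371), Mrpl52 (339), Mrpl15 (322), Mrps24 (312) and Mrps15 (303). The lowest were Mrps36 (1.14), Mrpl23 (2.52), Mrps33 (2.74), Mrps21 (21.99) and Mrps31 (22.1). Mrps36, Mrpl23 and Mrps33 were also the genes listed at 0 in at least 1 library. Mrpl23 reached at most 8.91 FPKM while its pseudogene Mrpl23-ps1 lay between 24.7 and 184 FPKM, so reads of this near copy cannot be told apart from those of the gene and its level is uncertain. The same holds for Mrpl48, whose mean was 23.0 FPKM against 11.5 to 108 for Mrpl48-ps. In the GENCODE M21 annotation the exons of Mrpl10, Mrpl12, Mrpl13, Mrpl14, Mrpl18, Mrpl19, Mrpl21, Mrpl24, Mrpl27, Mrpl3, Mrpl36, Mrpl43, Mrpl44, Mrpl46, Mrpl47, Mrpl48, Mrpl49, Mrpl51, Mrpl53, Mrpl9, Mrps11, Mrps18b, Mrps18c, Mrps24, Mrps25, Mrps26, Mrps27, Mrps30, Mrps34, Mrps6 and Mrps7 overlap those of another gene, and reads there may be split between the genes. Mrpl33 was not found there by its identifier.

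Spread across the blood libraries differed among members. Mrps24, Mrpl44 and Mrpl49 varied most, with SDs of log2(FPKM + 1) of 2.12, 1.82 and 1.57 over 15 libraries, and Mrps16, Mrps11 and Mrpl19 varied least (0.33, 0.35 and 0.39). Mrpl44, a mitochondria-specific protein of the large subunit related to ribonuclease III, stood at 0.21 FPKM in ST-HSC 2D and between 52.3 and 180 in the other 14 blood libraries. It was also near 0 in the fibroblasts, at 0.03 to 0.11 FPKM. The exons of Mrpl44 overlap those of Wdfy1 on the opposite strand in the GENCODE M21 annotation. Wdfy1 lay at 52.5 FPKM in ST-HSC 2D, 4.00 to 36.0 in the other blood libraries and 20.1 to 59.4 in fibroblasts. Its part in the low Mrpl44 values was not tested. The 3 genes related to the bacterial S18 protein had different levels. Mrps18c, of the small subunit, was at 107 to 128 FPKM in fibroblasts and 7.02 to 34.4 in blood. Mrps18b, also of the small subunit, was at 11.0 to 12.5 and 8.48 to 52.0, and Mrps18a, of the large subunit, at 59.1 to 88.0 and 33.9 to 231.

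Culture without doxycycline was compared first. In the N libraries 30 of 75 tested genes rose against uncultured cells and none fell (limma on log2(FPKM + 1) with cell type as block, adjusted p under 0.05). Over all 12060 genes tested, 5.8% rose and 3.08% fell. The members' median log2 difference was 1.04 against 0.17 for all genes, and 69 of the 75 lay above 0. Markers of other cells moved with this comparison. The 3 mast cell and basophil markers summed to 0, 0 and 25.5 FPKM in uncultured LT-HSC, ST-HSC and MP, to 0 in both LT-HSC N libraries, to 66.5 and 148 in ST-HSC N and to 515 and 747 in MP N, with Tpsb2 at 0 in all but MP 4N. The 6 myeloid progenitor markers summed to 134 and 181 FPKM in LT-HSC N, 5650 and 9655 in ST-HSC N and 34937 and 30651 in MP N, beside the uncultured sums given above. The 2 macrophage markers in the table (of 3 listed) lay at 0.52 to 49.6 FPKM uncultured and 1.27 to 184 in N. The 4 erythroid markers summed to 2.86, 4.33 and 193 FPKM in uncultured LT-HSC, ST-HSC and MP, and to 0 to 11.2 in N. The part of these cells in the result was not tested. At an unadjusted p under 0.05 the counts were 48 higher and 0 lower (17.2% and 9.83% of all genes). The calls depend on the stem cells, for the members as for all genes. Without LT-HSC 2 members rose (65 of all genes, 0.550%), without ST-HSC 0 (13 genes, 0.109%) and without MP 30 (782 genes, 6.47%). In those 3 fits 39, 31 and 52 members were higher at an unadjusted p under 0.05, with 13.1%, 10.6% and 18% of all genes, and the members' median was 0.98, 0.74 and 1.26.

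Per cell type, the members' median difference from the uncultured library was 1.05 at 2N and 1.24 at 4N in LT-HSC, 1.47 at both days in ST-HSC, and 0.37 and 0.43 in MP. The medians of all genes in these 6 differences lay between 0.02 and 0.26. The median of the members was therefore above that of all genes in each, also in ST-HSC and MP. Their uncultured libraries did not go against their labels in the stem cell and myeloid progenitor markers, though uncultured MP also held erythroid markers. At 2N and 4N, 42 and 43 of the 76 genes were at least 2-fold higher in LT-HSC (30.6% and 30.2% of all genes were), 51 and 51 in ST-HSC (29.3% and 30.4%), and 12 and 13 in MP (17.6% and 18.5%). The share in MP was near that of all genes. All 6 N libraries lay above all 3 uncultured ones for 25 of the 75 genes (7.92% of all genes tested) and below them for 0 (4.1%).

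**Figure D2:**
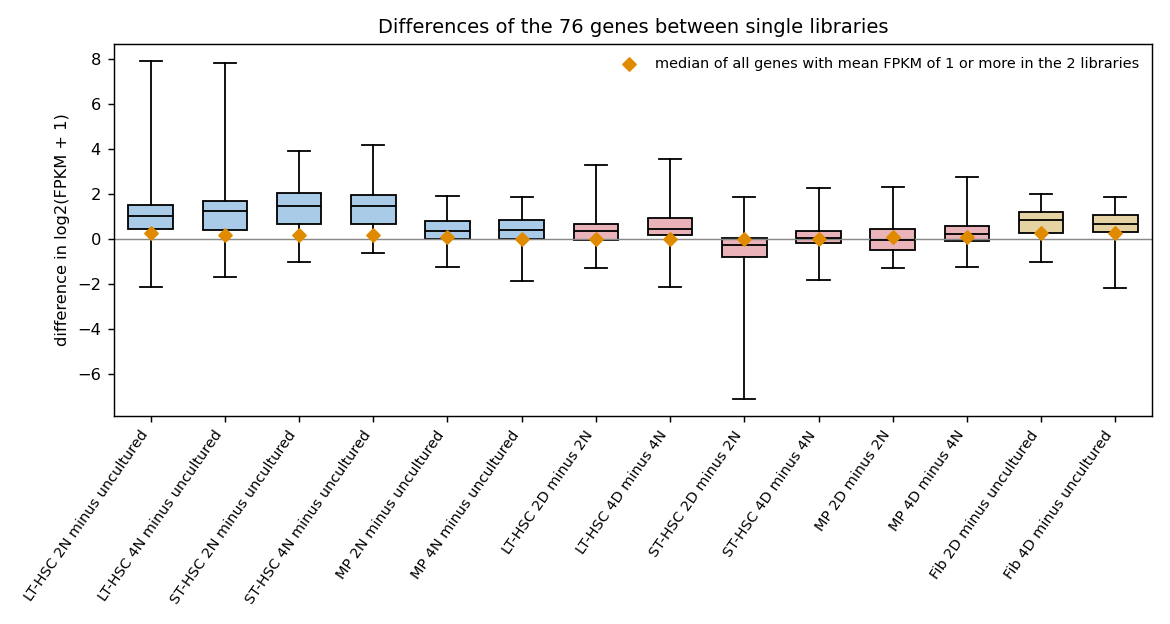
Differences in log2(FPKM + 1) between single libraries (horizontal axis) over the 76 genes: box, quartiles and median; whiskers, lowest and highest gene; diamonds, median of all genes with a mean FPKM of 1 or more in the pair. LT-HSC and ST-HSC cultures lie highest above uncultured cells, with member medians of 1.05 to 1.47. The D minus N medians lie between -0.24 (ST-HSC day 2) and 0.44 (LT-HSC day 4).

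In the large subunit, 15 of 30 bacterial-type genes rose in N and the median difference was 1.10. The gene with the lowest adjusted p was Mrpl20, which belongs to the family of the bacterial assembly protein L20. It stood at 32.1 FPKM in LT-HSC, 52.2 in ST-HSC and 192 in MP uncultured, and at 335 to 738 in the 6 N libraries (log2 difference 2.72 ± 0.34 SE, limma adjusted p = 0.002353). The groups did not overlap, and the adjusted p was 0.0685 without ST-HSC. Mrpl36, of the small L36 family, was at 66.9 to 164 FPKM uncultured and 247 to 444 in N (1.81 ± 0.28, adjusted p = 0.006852), also without overlap. Mrpl35, Mrpl18 and Mrpl22 rose by 1.83, 1.69 and 1.54 with adjusted p of 0.0178, 0.0206 and 0.0429. They passed in 6, 5 and 2 of the 8 alternative fits. Mrpl12, the stalk protein, went from 48.4, 92.3 and 199 FPKM uncultured in LT-HSC, ST-HSC and MP to 178 to 360 in N (1.48 ± 0.28, adjusted p = 0.015026), and Mrpl10, to which the stalk attaches, rose by 1.45 (adjusted p = 0.0208). Mrpl24 was 1 of the few genes below 0, at 190 to 301 FPKM uncultured and 113 to 312 in N (-0.25, adjusted p = 0.662).

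Of the 19 mitochondria-specific genes of the large subunit, 7 rose in N, with a median difference of 1.07. Mrpl49 lay at 4.31 FPKM in LT-HSC, 9.32 in ST-HSC and 66.4 in MP uncultured. In the N libraries it lay at 29.5 to 185 FPKM (2.71 ± 0.57, adjusted p = 0.0208). The groups overlapped, because uncultured MP was above the lowest N library. Mrpl46 and Mrpl41 rose by 1.95 (adjusted p = 0.0215) and 1.89 (adjusted p = 0.0442). They passed in 5 and 2 of the 8 alternative fits. The exons of Mrpl46 overlap those of Mrps11 on the opposite strand in the GENCODE M21 annotation. Strand is not stated for the counting, and Mrps11 was at -0.15 (adjusted p = 0.741). Mrps30 was at -0.21 (adjusted p = 0.827).

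Of the small-subunit genes, 6 of 16 bacterial-type and 2 of 10 mitochondria-specific genes rose in N, with median differences of 0.69 and 0.99. Mrps24, the counterpart of bacterial S3, had the highest log2 difference. It was at 0.68 FPKM in uncultured LT-HSC, 83.1 in ST-HSC and 167 in MP, and at 378 to 533 in N (3.91 ± 0.99, adjusted p = 0.0454). Its difference was 1.93 without LT-HSC, where it also passed (adjusted p = 0.0322). Without ST-HSC the difference was 4.72 and did not pass (adjusted p = 0.1795). Mrps24 passed in 3 of the 8 alternative fits. Mrps12, a protein of the decoding centre, was at 98.9 to 247 FPKM uncultured and 258 to 340 in N (0.99 ± 0.26, adjusted p = 0.0430). Mrps6 rose by 1.75 ± 0.34 (adjusted p = 0.01593). Mrps5 was at -0.17 (adjusted p = 0.874) and Mrps18b and Mrps18c, at 0.90 and 0.40, did not pass either (adjusted p = 0.233 and 0.583).

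The D libraries were compared with the same 3 uncultured libraries, so this comparison shares its controls with that of N. Of 76 genes tested, 42 rose and 0 fell (9.16% and 6.17% of 12539 genes), with a median of 1.18 against 0.23 for all genes. At an unadjusted p under 0.05, 47 were higher and 0 lower (19.3% and 13.4% of all genes). Without LT-HSC 6 members rose (1.64% of all genes), without ST-HSC 11 (4.26%) and without MP 31 (5.99%). By class, 19 of 30 and 13 of 19 genes of the large subunit rose, and 6 of 16 and 4 of 10 of the small subunit. All 6 D libraries lay above all 3 uncultured ones for 27 genes (10.2% of all genes tested) and below them for 0 (6.46%).

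Mrps6 rose by 3.51 ± 0.30 in D against uncultured (adjusted p = 1.93e-04), beside 1.75 in N. Mrpl49, Mrpl20 and Mrps24 had 2.96, 2.89 and 3.91 in D beside 2.71, 2.72 and 3.91 in N. Mrpl13, Mrps18a, Mrpl53 and Mrpl42, 1 bacterial-type and 3 mitochondria-specific proteins of the large subunit, rose by 2.33, 2.06, 1.98 and 1.97 in D (adjusted p = 0.00413, 0.00333, 0.00420 and 0.0167), beside 1.52, 1.25, 1.07 and 1.44 in N. Mrps35 rose by 1.77 in D (adjusted p = 0.0152). The genes below 0 were Mrpl44 (-0.51), Mrpl24 (-0.45), Mrps11 (-0.19), Mrps5 (-0.15) and Mrps10 (-0.04), with adjusted p between 0.373 and 0.959. The Mrpl44 value rests on ST-HSC 2D and was 0.30 without ST-HSC.

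The direct comparison of factor induction was D against N in 6 pairs of the same cell type and day. In simulated data this test found 10% of log2 shifts of 1 and 36% of shifts of 2. Of 76, 2 rose and 0 fell, where 4.53% and 4.44% of all 12254 genes tested did. The members' median log2 difference was 0.09 against 0.02 for all genes, with 47 above 0 and 29 below. At an unadjusted p under 0.05, 10 were higher and 0 lower (12.1% and 11.9% of all genes).

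**Figure D3:**
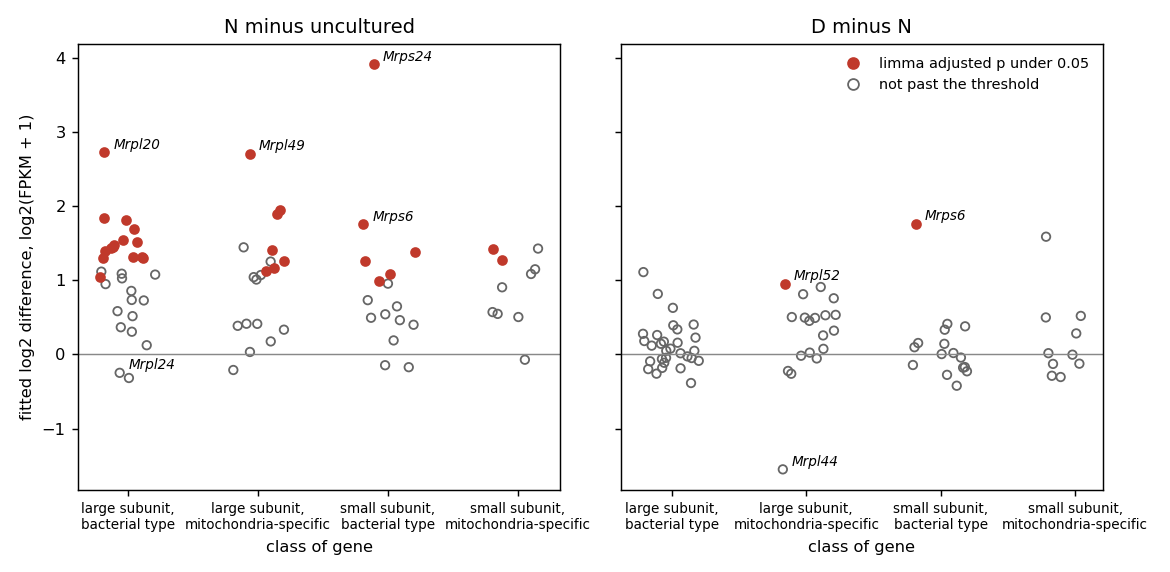
Fitted log2 difference of each gene, by class, for N minus uncultured (left) and D minus N (right); filled points have a limma adjusted p under 0.05. In N 30 genes are filled and none lies below 0 among them, while in D against N the filled points are Mrps6 and Mrpl52.

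Mrps6, the counterpart of bacterial S6 in the small subunit, differed most. In LT-HSC it was at 20.4 FPKM uncultured, 140 and 136 at 2N and 4N, and 351 and 388 at 2D and 4D. In ST-HSC these values were 47.1, then 171 and 103, then 346 and 322 FPKM. In MP they were 43.9, then 94.3 and 94.7, then 477 and 651 FPKM. Each of the 3 groups of libraries, uncultured, N and D, lay apart from the other two without overlap. The D minus N difference was 1.76 ± 0.24 (limma adjusted p = 0.002587), above 0 in 6 of 6 pairs with a range of 1.01 to 2.77, and it passed in all 11 alternative fits run.

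The annotation gives Mrps6 a same-strand overlap in exons with Slc5a3, a myo-inositol transporter, which was chosen for description after this was seen. Slc5a3 lay at 0.31 to 0.96 FPKM in N and at 3.27 to 9.87 in D (2.10 ± 0.39, limma adjusted p = 0.0108). Uncultured, it lay at 2.95 FPKM in LT-HSC, 5.12 in ST-HSC and 0.59 in MP, so in the stem cells N was below uncultured, unlike Mrps6. Its levels were far below those of Mrps6, and its part in the Mrps6 difference was not tested. The neural markers given above also moved with D, and their part was not tested.

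Mrpl52, a mitochondria-specific protein of the large subunit, was the other gene that rose. It was at 387 and 325 FPKM at 2N and 4N in LT-HSC and 511 and 772 at 2D and 4D. In ST-HSC the values were 286 and 349 in N and 414 and 592 in D, and in MP 145 and 182 in N and 361 and 507 in D. D lay above N in every pair, although the groups overlapped across cell types (0.95 ± 0.19, adjusted p = 0.014767). The adjusted p was 0.0531 without the MP day 2 pair.

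The genes next in order did not pass: Mrpl13 was at 0.81 (adjusted p = 0.0608), Mrpl53 at 0.91 (0.0639) and Mrps18a at 0.81 (0.0980). Mrpl53 lay at 96.7 to 262 FPKM in N and 271 to 457 in D, without overlap. Only Mrpl53, Mrpl9 and Mrps6 had D libraries wholly above N (2.97% of all genes tested did), and no member had them wholly below (2.12%). D was above N in 6 of 6 pairs for 9 genes (7.21% of all genes tested), namely Mrpl27, Mrpl39, Mrpl48, Mrpl52, Mrpl53, Mrpl9, Mrps15, Mrps18a and Mrps6, and below in 6 of 6 for Mrpl10 (6.68% of all genes; -0.26, adjusted p = 0.453). On the lower side Mrps16 was at -0.42 (adjusted p = 0.234) and Mrpl44 at -1.55 ± 0.86 (adjusted p = 0.319).

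**Figure D4:**
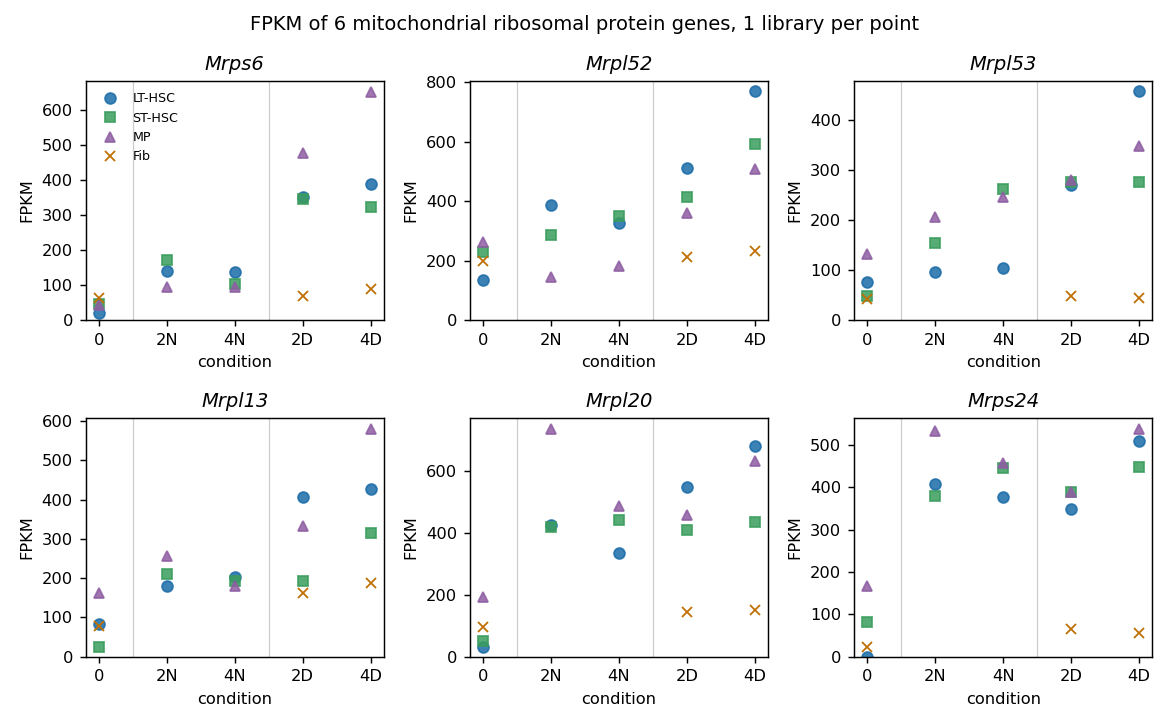
FPKM of 6 genes by condition (0, uncultured; N, without and D, with doxycycline, 2 or 4 days), with 1 point per library. Mrps6 separates the D libraries of blood (322 to 651) from N (94.3 to 171), while fibroblasts stay between 63.8 and 88.9. For Mrpl20 and Mrps24 the cultured blood libraries lie above the uncultured ones, and D and N overlap.

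By pair, the members' median D minus N difference was 0.36 and 0.44 at days 2 and 4 in LT-HSC, -0.24 and 0.07 in ST-HSC, and -0.04 and 0.24 in MP. All genes had medians between -0.01 and 0.12. Above 0 at days 2 and 4 were 54 and 62 members in LT-HSC, 22 and 43 in ST-HSC and 38 and 51 in MP. Of all genes, 49.6% to 54.4% were. ST-HSC day 2 was thus the lowest pair, with 22 of 76 genes above 0. Without it 4 members rose (4.03% of all genes), and the members' median was 0.21 against 0.05 for all genes. The test of whether the difference changed between days called 0 genes, of the members and of all genes (0.0%), with 3 members higher at an unadjusted p under 0.05 (Mrpl47, Mrps26 and Mrps7) and 0 lower (1.82% and 2.35% of all genes). Without 1 pair in turn the number higher lay between 1 and 2, except 13 without LT-HSC day 2, where 3.65% of all genes were higher. The test between MP and the stem cells also called 0 (0.0%), with Mrps6 (1.18 ± 0.35, adjusted p = 0.424) higher and 0 members lower at an unadjusted p under 0.05 (4.18% and 4.13% of all genes). In simulated data both of these tests found 0% of log2 shifts of 2, so their counts of 0 say little.

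Between days 2 and 4, over D and N together, 2 members rose and 0 fell (0.914% and 1.2% of all genes), with 21 higher and 3 lower at an unadjusted p under 0.05 (7.83% and 9.05% of all genes). The members' median was 0.24, against -0.05 for all genes. Between single N libraries it was 0.14 in LT-HSC, 0.05 in ST-HSC and 0.01 in MP. Between single D libraries it was 0.46, 0.58 and 0.32. All genes had medians of -0.09 to -0.01 in these 6 pairs. Mrpl33, a small bacterial-type protein of the large subunit, was at 54.4 to 91.8 FPKM in the 6 libraries of day 2 and at 123 to 295 in those of day 4, without overlap (1.21 ± 0.22, limma adjusted p = 0.0195). Mrpl46 rose by 0.70 (adjusted p = 0.0413). Without 1 of the 6 pairs of libraries in turn the count was 0 or 1: it was 0 without either LT-HSC D or ST-HSC N or ST-HSC D, and 1 without LT-HSC N, MP N or MP D. In those fits 0.444% to 0.751% of all genes rose.

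MP were compared with the stem cells at the same condition. Of the 76 genes, 70 lay above 0 with a median of 0.39, but 0 passed in either direction (limma, with 0.0402% of all genes higher and 0.257% lower), and 13 were higher and 0 lower at an unadjusted p under 0.05 (6.61% and 6.95% of all genes). Without the uncultured libraries these counts were 6 and 2 (5.43% and 6.77% of all genes). In uncultured cells the members' median was 1.10 for MP minus LT-HSC and 1.11 for MP minus ST-HSC, and in the 8 differences between cultured libraries it lay between -0.05 and 0.45. Without the uncultured ones the fitted median was 0.22. Mrps15 and Mrpl35 were higher in MP in 10 of 10 pairs, as were 1.45% of all genes (0.59 and 0.79, adjusted p = 0.175 and 0.211). Mrps14 and Mrpl18 were at 0.64 and 0.63 (adjusted p = 0.181 and 0.205) and Mrpl52 at -0.45 (adjusted p = 0.403). ST-HSC against LT-HSC gave 0 calls (0.0%), with 1 member, Mrpl2 (0.75, adjusted p = 0.631), higher and 0 lower at an unadjusted p under 0.05 (3.48% and 3.05% of all genes).

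Fibroblasts had no culture without doxycycline, so culture and induction cannot be told apart there, and their own difference is described without a test. The members' median against uncultured fibroblasts was 0.85 at 2D, with 69 genes above 0 and 7 below, and 0.68 at 4D, with 66 above and 10 below. All genes had medians of 0.27 and 0.29. At least 2-fold higher at both days were 20 of the 75 genes considered (16.9% of all genes), and at least 2-fold lower 0 (10.8%). The largest differences upward were those of Mrpl50, Mrpl30 and Mrpl1: Mrpl50 went from 16.5 FPKM to 57.8 and 57.1, Mrpl30 from 17.98 to 61.3 and 65.3, and Mrpl1 from 4.51 to 20.9 and 19.1. Mrps36, Mrpl48 and Mrpl54 were lower at both days. Mrpl54 went from 79.7 to 58.9 and 56.0 FPKM, and Mrps36, at low levels, from 3.48 to 1.57 and 0. Mrpl48 went from 24.8 to 11.9 and 13.0 FPKM, while its pseudogene Mrpl48-ps went from 11.5 to 45.3 and 44.0. The part of this near copy in the Mrpl48 difference was not tested.

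**Figure D5:**
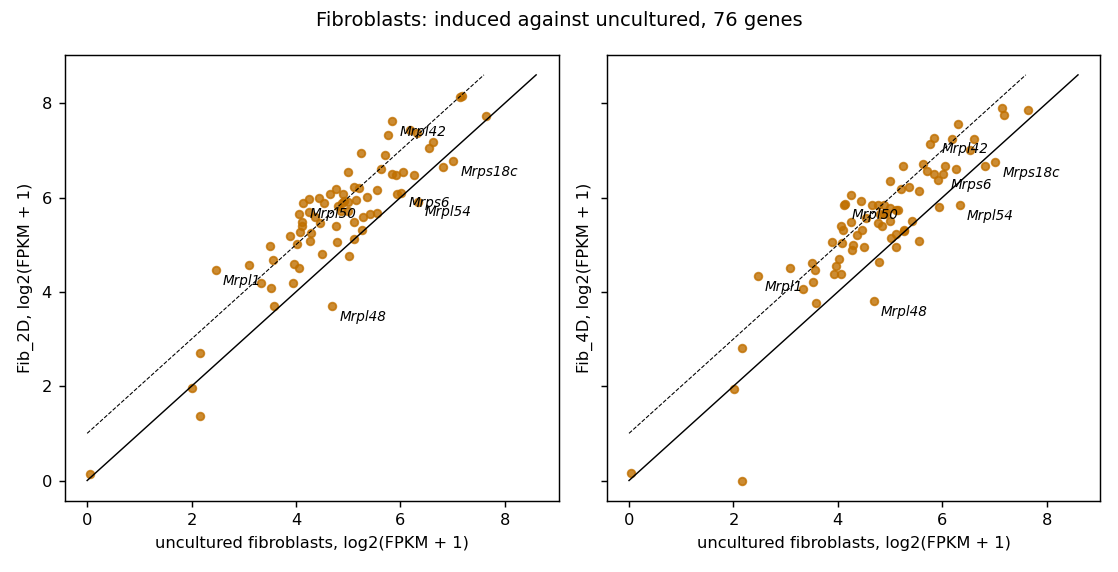
Level of each of the 76 genes in fibroblasts after 2 days (left) and 4 days (right) with doxycycline, against uncultured fibroblasts, as log2(FPKM + 1); the solid line marks no change and the dashed line a 2-fold rise. At 2D 69 genes lie above the solid line, and at 4D 66.

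The change from uncultured to D was tested between fibroblasts and blood. Mrps6 was the 1 member that differed, at 63.8 FPKM in uncultured fibroblasts, 67.7 at 2D and 88.9 at 4D (-3.24 ± 0.54 relative to blood, limma adjusted p = 0.0271). Of all genes 0.423% were higher and 0.521% lower, and of the members 1 was higher and 7 lower at an unadjusted p under 0.05 (6.52% and 6.19% of all genes). Without MP these counts were 0 and 15 (7.83% and 7.97% of all genes). The call did not hold without LT-HSC (-2.94, adjusted p = 0.103) or without MP (-3.17, adjusted p = 0.0802). Slc5a3 went from 2.06 to 6.64 and 9.19 FPKM in the same fibroblasts. Mrpl54, Mrpl53 and Mrps18a came next and did not pass (-1.53, -1.83 and -1.54, adjusted p = 0.169, 0.196 and 0.251).

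Other genes of mitochondrial gene expression were read beside the members. Of the 7 mitochondrial ribosomal proteins without an Mrp name, 5 rose in N against uncultured and 0 fell (5.8% and 3.08% of all genes). Aurkaip1, of the small subunit, lay at 114 to 331 FPKM uncultured and 534 to 722 in N (1.82, limma adjusted p = 0.00679), and Ict1, a peptidyl-tRNA hydrolase built into the large subunit, at 70.4 to 141 and 195 to 285 (1.42, adjusted p = 0.0174). Dap3, a GTP-binding protein of the small subunit, was at 0.81 (adjusted p = 0.178). Of 13 translation factors 2 rose, among them the elongation factor Gfm1 (1.44, adjusted p = 0.0361), while Tufm was at 0.63 (adjusted p = 0.334). Of 19 genes for charging mitochondrial tRNAs, 2 rose (Pars2 and Iars2), of 17 assembly factors 2 (Ftsj2 and Ngrn), and of 12 genes of mitochondrial DNA upkeep and RNA 2, the DNA-binding proteins Ssbp1 (3.02, adjusted p = 0.00218) and Tfam (1.60, adjusted p = 0.0236). None of these lists had a member that fell. Polrmt, the RNA polymerase, and Lrpprc, which stabilises its transcripts, were at 1.25 and 0.86 (adjusted p = 0.0688 and 0.234).

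In D against N these lists held no gene that rose and 2 that fell (4.53% and 4.44% of all genes). Cars2, the cysteinyl-tRNA synthetase, was at 40.0 to 59.1 FPKM in N and 18.9 to 35.8 in D, without overlap (-0.91, limma adjusted p = 0.0294), and Rpusd4, which modifies the mitochondrial ribosomal RNA, was at -1.42 (adjusted p = 0.0373). Genes of the respiratory chain and ATP synthase, whose complexes the mitochondrial ribosome supplies, had 20 of 79 higher and 1 lower in N against uncultured, with a median of 0.69 beside 1.04 for the ribosomal proteins. In D against N they had 3 higher and 0 lower, with a median of 0.19 beside 0.09. The respiratory set also held Cox4nb, which is not a respiratory chain or ATP synthase gene. Whether the 2 sets of genes differ was not tested.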

How the data were processed

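RNA was measured in 18 mouse libraries. The values are the FPKM deposited by the authors, made with TopHat and Cufflinks on mm9 per the submitters' processing notes; versions, annotation and strand: not given in the sources used here. Depth is unknown, no interval that needs it is given, and an entry of 0 may be an estimate that failed. The 36818 entries were summed to 36655 symbols, of which 158 were on several entries, none of them a member. A gene entered a fit where its FPKM averaged 1 or more in the libraries used, and log2(FPKM + 1) was tested by limma 3.58.1 (R 4.3.3; empirical Bayes, trend and robust), two-sided, with Benjamini-Hochberg adjustment over all genes tested and a threshold of 0.05. Blocks were the pairs of cell type and day (D against N), cell type (against uncultured), cell type and arm (day 4 against day 2) and condition (between cell types). Both days of a cell type share its uncultured library, and p-values measure the spread between these libraries only. Fibroblasts against blood was an interaction term. The fits were tested on simulated data with log2 shifts added to some genes. A shift of 2 was found in 36% of them for D against N, 8% for N and 10% for D against uncultured. For day 4 against day 2, MP against stem cells and ST-HSC against LT-HSC it was 52%, 60% and 28%. For the tests of D between days, of D between MP and stem cells and of fibroblasts against blood it was 0%. A shift of 4 was found there in 30%, 22% and 2%. Alternatives were a pseudocount of 0.1, no filter, median scaling, quantile normalization, limma without trend and robust, and leaving out each block. Log2 differences depend on the added 1 where levels are near 0. Coordinates are those of RefSeq on GRCm38.p6 and exon overlaps those of GENCODE M21, matched by name, not by position on mm9. The NRF1 motif is given by name. Python 3.11.15 was used for the remaining steps (numpy 2.4.6, pandas 2.3.3) and plots (matplotlib 3.10.9).

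The members, lists and tests were chosen with earlier results of these data known. Genes were named by rank: up to 10 each way past the threshold in the main comparisons (3 in the others), filled up to 5 (or 3) by smallest p, the 5 highest and lowest by level, those listed at 0, the 3 most and least variable, the 3 largest differences each way in fibroblasts, and a fixed set of members and other mitochondrial genes. Others named here (Mrps31, Mrps33, Mrps18c and the genes of the sets counted by library order, such as Mrpl9 and Mrpl27) come from these ranks or from sets given in full. Some genes that the rule names are left out for space.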

Additional observations from a re-analysis of the deposited data

Results flagged for a closer look

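The change of Mrps6 from uncultured to D differed between fibroblasts and blood cells by -3.24 on the log2 scale (limma interaction term, adjusted p = 0.0271). Mrps6 was the 1 member called in this test, and the adjusted p was 0.103 without LT-HSC (-2.94) and 0.0802 without MP (-3.17). Fibroblast and blood libraries were made by different methods, so cell type and method cannot be told apart in it.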

How the results depend on the processing

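Of 756 values of named genes under alternative settings, 675 kept their direction and side of the threshold, 61 no longer passed, 4 newly passed and 16 changed sign. The number of members that rose is given with the share of all genes that rose in brackets. In N against uncultured it was 30 (5.8%), 17 (2.59%) with no filter, 18 (4.3%) under quantile normalization and 3 (1.94%) with limma without trend and robust. Leaving out 1 cell type it was 0 to 30 (0.109% to 6.47%). In D against uncultured it was 42 (9.16%), 16 (6.18%) with limma without trend and robust, and 6 to 31 (1.64% to 5.99%) leaving out 1 cell type. In D against N it was 2 (4.53%), 4 (4.6%) under quantile normalization, 1 (4.32%) with limma without trend and robust, and 1 to 4 (2.51% to 4.03%) leaving out 1 pair. Between days it was 2 (0.914%), 1 (0.511%) with no filter, 4 (1.01%) under median scaling and 1 (0.808%) under quantile normalization. With limma without trend and robust it was 0 (0.522%), and leaving out 1 pair 0 to 1 (0.444% to 0.751%). In fibroblasts against blood 1 member was lower and 0 were higher (0.521% and 0.423% of all genes). The number lower was 0 to 1 leaving out 1 blood cell type, with 0 to 67 of all genes lower. No member fell in N or D against uncultured or in D against N in these fits. The median of all genes moved by over 0.1 under quantile normalization (N against uncultured, from 0.17 to 0.06; D against uncultured, from 0.23 to 0.13) and under median scaling in fibroblasts against blood (0.05 to -0.17), and the members' medians were 0.92, 1.11 and -0.68 there. Sign changes, none of a gene past the threshold, came from leaving out 1 block, with these lowest and highest values: for N against uncultured, Mrps5 from -1.17 to 0.508; for D against uncultured, Mrpl44 from -1.38 to 0.299, Mrps10 from -0.341 to 0.242, Mrps11 from -0.469 to 0.0499 and Mrps5 from -0.851 to 0.435; for MP against stem cells, Mrpl23 from -0.516 to 0.332, Mrpl3 from -0.340 to 0.118 and Mrpl39 from -0.395 to 0.0321. Median scaling also turned Mrps10 (0.0368) and Mrpl3 (0.0167) in the same comparisons. The members' median in the test of D between MP and stem cells (-0.031) ranged from -0.192 to 0.138. The causes were not tested. The fits of D against N paired libraries of the same cell type and day, and no fit with a replicate number as block was run, since each condition is 1 library.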
